A study of Mus musculus with 7 samples.

Results

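The genes described here are 10 mouse glutathione transferases, namely the mu class genes Gstm1, Gstm2, Gstm3, Gstm4, Gstm5 and Gstm6, the pi class gene Gstp1 and the microsomal genes Mgst1, Mgst2 and Mgst3. They were taken by symbol from the 26607 genes listed in each library, and all 10 symbols were found. The family was chosen from earlier results of the same comparison between stimulated and control myotubes. Its differences between the groups are therefore a description. No p-value is given for a member, and the limma thresholds serve only to count members beside all other genes.

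Glutathione transferases join the tripeptide glutathione to reactive, mostly electrophilic compounds, which makes them easier to export from the cell. The mu and pi classes are soluble cytosolic enzymes. The microsomal enzymes belong to a separate membrane protein family called MAPEG, and Mgst2 and Mgst3 also act on leukotriene and lipid peroxide substrates. Many transferase genes are known targets of NFE2L2 (NRF2), the main transcription factor of the antioxidant response, and some are targets of the aryl hydrocarbon receptor.

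The cells were C2C12 myotubes, which form when myoblasts of this mouse line are moved to low serum and fuse. In the EPS group, myotubes in six-well plates received electrical pulse stimulation for about a day and then a short rest, and the control group was not stimulated. Poly(A) RNA was sequenced from 3 control samples, numbered replicates 1, 3 and 4, and 4 EPS samples, numbered replicates 1 to 4. The labels do not say whether the libraries came from separate cultures, so p-values measure only the spread between these samples, which may be technical.

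Each library held between 16616917 and 22120641 reads. Control replicate 4 stood apart from the others, because only 359 of its genes had 1 to 5 reads, against 2670 to 3181 genes elsewhere. Low counts may have been removed from it, so a 0 in that library is not taken as a measured absence. Among the genes this touches are Gstm4, Gstm6 and Gstm7. Levels are in the deposited unit CPM, the reads of a gene scaled to the total of its library. A level of 3 reads, between 0.136 and 0.181 CPM, was taken as the floor below which a gene was not told apart from 0, with allowance for counting error only. The summed level of 9 myotube markers was 16719 to 20254 CPM in the control libraries and 11385 to 18061 CPM in the EPS libraries. The summed level of 6 markers of proliferating myoblasts was 218 to 313 CPM in the control libraries and 333 to 925 CPM in the EPS libraries, and its part in the results below was not tested. The cell cycle genes Mki67, Top2a, Ccnb1 and Cdk1 carried most of this sum, while the groups overlapped for the myoblast genes Pax7 and Myf5. Mki67 and Top2a in EPS replicate 2 were below control replicate 1. All 4 hepatocyte markers and all 3 adipocyte markers were at or below 3 reads in every library. Endothelial markers summed to 0.843 to 1.54 CPM in the control libraries and 0.731 to 1.16 CPM in the EPS libraries. Macrophage markers summed to 0.641 to 1.08 CPM in the control libraries and 1.26 to 2.76 CPM in the EPS libraries, with the defining marker Ptprc at no more than 3 reads in any library, and their part in the results was not tested. In such bulk libraries, a change in the number of cells of a kind and a change in RNA per cell cannot be told apart.

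The 6 mu genes lie together on chromosome 3. With Gstm7, a mu gene outside the list, they fill 149 kb (GENCODE M21 on GRCm38, chr3:107895821-108044894). Gstm5 is the outermost gene on one side and runs on the plus strand, while the other mu genes run on the minus strand. Mgst2 lies elsewhere on the same chromosome (chr3:51660360-51682677, plus strand). Gstp1 is on chr19:4035407-4037985 (minus strand), Mgst1 on chr6:138140316-138156755 (plus strand) and Mgst3 on chr1:167371966-167393841 (minus strand).

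The mu genes are close copies of each other. Over the coding sequence of the principal transcript, Gstm1 shared 89.5% of its aligned bases with Gstm3, 86.0% with Gstm2 and 69.5% with Gstm5, the most distant mu gene. The microsomal genes shared 46.1% to 48.9% of aligned coding bases with each other. Gstp1 and its neighbour Gstp2 shared 98.1%. Of the 100-base windows along the Gstp1 transcript, 52.8% also occur in Gstp2 or the pseudogene Gstp-ps, so the counting of reads between Gstp1 and Gstp2 is uncertain. For Gstm1, 7.73% of windows also occur in another gene, namely Gstm2-ps1, Gm8834 or Gstm3. For Gstm3 this share was 13.8%, with Gm8834, Gstm2-ps1, Gstm6 or Gstm1. It was 2.47% for Gstm6, with Gstm3, and 0.62% for Gstm2, with Gm12499. No such window was found for Gstm4, Gstm5, Mgst1, Mgst2 or Mgst3. Gstm5 is overlapped on the opposite strand by 4933431E20Rik, whose level was 1.94 to 4.69 CPM, and without a stated use of strand in counting their reads cannot be told apart. Mgst2 is overlapped on its own strand by Gm37261, which was not analysed here, and reads from the shared stretch cannot be told apart.

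Promoter sequences are shown for the 6 members with a mean of at least 1 CPM and a motif match and for Gstp2, to set genes with large and small differences beside each other. They are the 120 bases before the RefSeq start site (GRCm38.p6), written 5′ to 3′ on the gene's own strand. Capitals mark matches, on either strand, to 3 motifs, TGACNNNGC (the core of the antioxidant response element, read by NFE2L2), GCGTG (the core of the xenobiotic response element, read by the aryl hydrocarbon receptor) and TGAGTCA (the AP-1 site). The AP-1 site was added after the sequences had been read.
Gstm1 (chr3:108017974-108018093, minus strand): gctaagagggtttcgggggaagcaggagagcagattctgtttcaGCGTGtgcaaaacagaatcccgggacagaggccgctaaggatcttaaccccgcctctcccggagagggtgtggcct
Gstm5 (chr3:107895734-107895853, plus strand): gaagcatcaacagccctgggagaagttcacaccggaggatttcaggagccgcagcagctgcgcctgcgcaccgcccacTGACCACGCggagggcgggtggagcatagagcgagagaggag
Gstp1 (chr19:4037913-4038032, minus strand): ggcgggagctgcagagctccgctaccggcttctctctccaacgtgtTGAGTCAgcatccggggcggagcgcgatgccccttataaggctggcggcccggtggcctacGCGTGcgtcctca
Gstp2 (chr19:4042222-4042341, minus strand): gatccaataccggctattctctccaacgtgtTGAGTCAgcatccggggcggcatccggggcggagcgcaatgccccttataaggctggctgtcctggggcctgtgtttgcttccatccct
Mgst1 (chr6:138140407-138140526, plus strand): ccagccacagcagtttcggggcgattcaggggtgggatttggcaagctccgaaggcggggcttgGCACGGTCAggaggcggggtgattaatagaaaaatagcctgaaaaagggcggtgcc
Mgst2 (chr3:51661059-51661178, plus strand): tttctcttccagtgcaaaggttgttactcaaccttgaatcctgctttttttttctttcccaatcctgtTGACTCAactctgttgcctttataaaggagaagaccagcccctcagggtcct
Mgst3 (chr1:167393842-167393961, minus strand): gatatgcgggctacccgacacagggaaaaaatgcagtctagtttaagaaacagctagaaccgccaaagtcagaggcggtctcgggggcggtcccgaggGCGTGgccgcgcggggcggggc

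Windows of 300 bases, from 250 before to 50 after each start site, were searched for the same motifs. Of 32851 such windows over all genes, 12.4% held the antioxidant core, 32.4% the xenobiotic core and 5.20% the AP-1 site. The 10 members had 15 windows. The antioxidant core was found in Gstm5 and Mgst1. The xenobiotic core was found in Gstm1, Gstm5, Gstp1 and Mgst3, and the AP-1 site in Gstm5, Gstp1 and Mgst2. Counted by window, as the shares over all genes are, the antioxidant core was in 2 of 15, the xenobiotic core in 5 and the AP-1 site in 3. Since the AP-1 site was added after these sequences had been read, nothing is read from its count. The AP-1 site starts 74 bases before the start site in Gstp1, 89 before it in Gstp2 and 52 before it in Mgst2. In Gstm5 the antioxidant core overlaps a xenobiotic core on the opposite strand, and a further xenobiotic core and an AP-1 site lie upstream of the printed stretch. A match is only a stretch of letters and not a shown binding site. Only exact matches to these letters were sought, so a gene without a match is not shown to lack a site.

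Among the mu genes, Gstm1 had by far the largest difference between the groups. Its level was 29.7, 40.9 and 24.5 CPM in control replicates 1, 3 and 4 and 112, 266, 132 and 204 CPM in EPS replicates 1 to 4. The control mean was 31.7 ± 8.34 CPM (SD, n = 3), and the EPS mean was 178 ± 70.3 CPM (SD, n = 4). The lowest EPS library was 2.74-fold above the highest control library. On the scale of log2(CPM + 1) used for all fold changes, which pulls low genes toward 0, the log2 fold change of Gstm1 was 2.40 (standard error 0.31).

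Gstm2 was higher in the EPS group on average, but its groups overlapped. Its level was 7.11, 17.6 and 7.87 CPM in the control libraries and 16.7, 25.5, 12.0 and 22.4 CPM in the EPS libraries. Control replicate 3 lay above EPS replicates 1 and 3. The log2 fold change was 0.82 (standard error 0.36), and without control replicate 3 it was 1.20.

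Gstm5, the mu gene that is most distant in sequence, was at 13.5, 17.6 and 19.8 CPM in the control libraries and 18.0, 32.5, 18.7 and 24.2 CPM in the EPS libraries. EPS replicates 2 and 4 were above all control libraries, and EPS replicates 1 and 3 lay within the control range. The log2 fold change was 0.41 (standard error 0.25). It was 0.247 without EPS replicate 2, 0.265 without control replicate 1 and 0.529 without control replicate 4.

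The other mu genes were close to undetected in these cells. Gstm3 had 1 read in all, in EPS replicate 2. Gstm4 had 1 read in control replicate 3, none in the other control libraries, and 0, 6, 5 and 2 reads in EPS replicates 1 to 4. Gstm6 had 1, 1 and 0 reads in the control libraries and 4, 11, 2 and 3 reads in the EPS libraries. Control replicates 1 and 3 were under the floor for these 3 genes, so no fold is given for Gstm3 and Gstm4. Gstm6 was at least 1.37-fold higher with EPS against the mean floor of 3 reads in control replicates 1 and 3, with control replicate 4 left out of the floor. This bound rests on EPS replicate 2, since without it the EPS mean was 0.146 CPM, under that floor of 0.178 CPM. Gstm7, which is not a member but lies among them, had 10, 8 and 0 reads in the control libraries and 14, 31, 13 and 14 reads in the EPS libraries. The control library with 0 reads of Gstm7 was replicate 4, the one with few genes of 1 to 5 reads.

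Gstp1 was the most abundant member in the control libraries. Its level was 85.4, 73.5 and 134 CPM in the control libraries and 176, 207, 159 and 306 CPM in the EPS libraries. The means were 97.6 ± 32.0 CPM (SD, n = 3) and 212 ± 65.8 CPM (SD, n = 4). All EPS libraries were above all control libraries, but the lowest EPS library was only 1.19-fold above the highest control library. The log2 fold change was 1.11 (standard error 0.27), close to the 2-fold threshold.

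Gstp2, the near copy of Gstp1, was far less abundant. It had 1.22, 0.66 and 1.54 CPM in the control libraries and 3.77, 5.31, 4.39 and 6.43 CPM in the EPS libraries, without overlap. In limma it differed by 1.48 on the log2 scale (standard error 0.25), with a Benjamini-Hochberg adjusted p of 0.073. Between 69.8 and 111 Gstp1 reads were counted for each Gstp2 read in the control libraries, and between 36.2 and 47.6 in the EPS libraries. How reads that fit both genes were counted is not given in the sources used here.

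Of the microsomal genes, Mgst2 differed most, from a low control level. Its level was 1.40, 2.23 and 3.39 CPM in the control libraries, or 24, 37 and 75 reads, and 11.7, 45.7, 17.6 and 25.6 CPM in the EPS libraries, or 251, 938, 385 and 482 reads. The means were 2.34 ± 1.00 CPM (SD, n = 3) and 25.1 ± 14.8 CPM (SD, n = 4), a ratio of 10.7. The lowest EPS library was 3.45-fold above the highest control library, the widest gap among the members. The log2 fold change was 2.84 (standard error 0.44), smaller than the ratio of means because of the pseudocount and the log scale.

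Mgst1, a transferase of the endoplasmic reticulum and the outer mitochondrial membrane, was at 8.45, 11.3 and 16.3 CPM in the control libraries and 16.0, 37.9, 17.1 and 34.1 CPM in the EPS libraries. EPS replicate 1 lay just below control replicate 4, and the other EPS libraries were above all control libraries. The log2 fold change was 1.01 (standard error 0.36).

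Mgst3 showed little difference. Its level was 11.3, 12.6 and 26.2 CPM in the control libraries and 13.0, 25.4, 11.8 and 20.2 CPM in the EPS libraries. The highest value of all was in control replicate 4, above all EPS libraries. The log2 fold change was 0.10 (standard error 0.36), and its sign changed with the scaling of the libraries and with the libraries included.

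**Figure D1:**
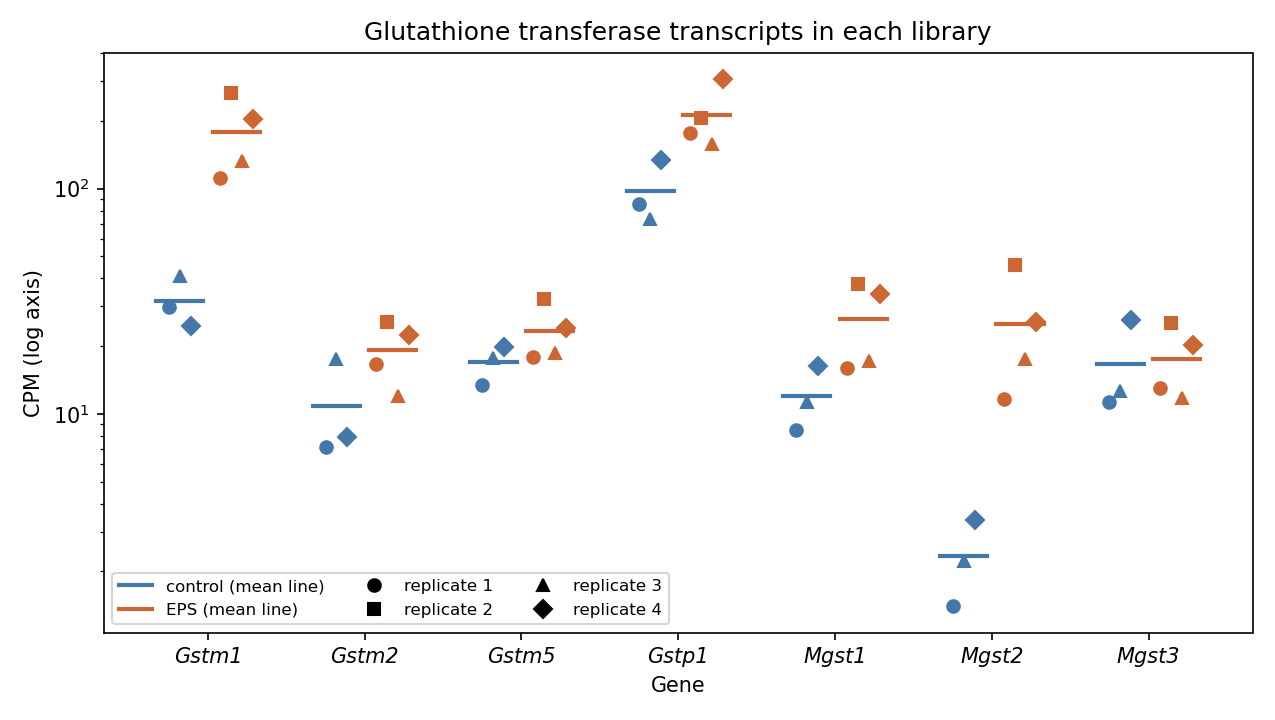
Level of the 7 members with a mean of at least 1 CPM in each library, on a log axis in CPM, with control libraries in blue, EPS libraries in orange, symbols for replicate numbers and lines for group means. The groups are apart for Gstm1, Gstp1 and Mgst2 and overlap for Gstm2, Gstm5, Mgst1 and Mgst3.

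Across the family, 3 of the 10 members, Gstm1, Gstp1 and Mgst2, were past both thresholds used here, a two-sided P under 0.01 with no adjustment and more than a 2-fold change in limma, all higher in the EPS group. Over the 19144 genes tested, 1.41% were past both thresholds in either direction and 0.966% in this direction. In 4 members all EPS libraries lay above the control range, the same 3 genes and Gstm6 at a few reads, against 7.76% of all genes tested. Since the members were chosen from this comparison, nothing is read from these shares. The median log2 fold change of the 10 members was 0.62, or 0.64 with the genes under the floor placed at their bounds, and that of all genes tested was 0.04.

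Of the 3 members past the thresholds, Gstm1 and Mgst2 stayed past them in every alternative run. Over 16 alternatives in scaling, pseudocount, filter, test, block, threshold and libraries, Gstm1 ranged from 2.18 to 2.60 and Mgst2 from 2.51 to 3.28. Gstp1 ranged from 0.92 to 1.36 and was past them in 10 of 16. It was not past them at a P-value threshold of 0.001, which the study also names, or with DESeq2 or median-of-ratios scaling. The libraries that decided it were control replicates 1 and 3 and EPS replicate 4, since without any one of them its call was lost, at 1.04, 0.93 and 0.92. Mgst1 ranged from 0.80 to 1.24 and was past the thresholds in 3 of 16. Gstm2 was past them in 1 of 16, Gstm5 and Mgst3 in none. The 16 alternatives are not all separate checks of a fold change, since the filter and the P-value threshold leave it unaltered. The replicate block gives the same fold change as the fit without EPS replicate 2.

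**Figure D2:**
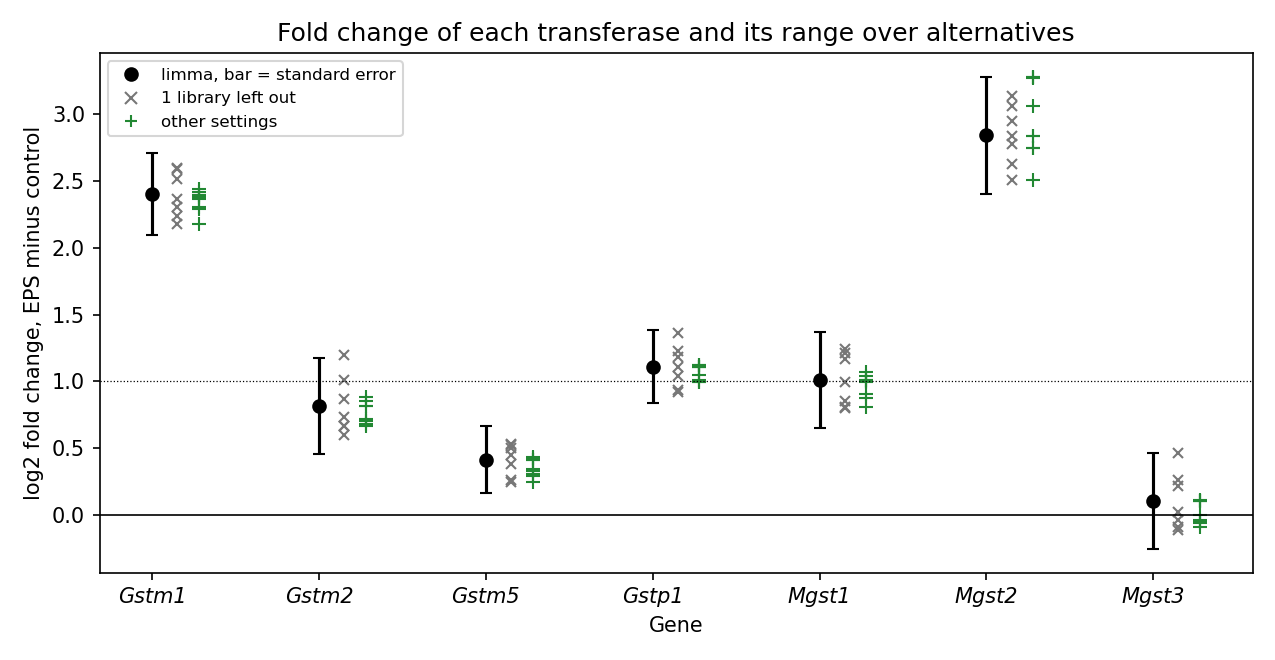
Log2 fold change of EPS against control for the 7 members with a mean of at least 1 CPM, with the limma value and its standard error in black, values with 1 library left out as grey crosses and other settings as green plus signs. The dotted line marks a 2-fold change, and values of Mgst3 lie on both sides of 0.

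Per length of the principal transcript, the members could be ordered within each group. In the control libraries, Gstp1 led with 119 CPM per kb, followed by Gstm1 with 24.6, Gstm5 with 18.0, Mgst3 with 15.2, Mgst1 with 10.3, Gstm2 with 10.2 and Mgst2 with 3.88. Gstp1 was above Gstm1 in every library, and Mgst2 was below Gstm2 in every control library, with no overlap of ranges. The ranges of neighbours in between, from Gstm1 down to Gstm2, overlapped. Gstm3, Gstm4 and Gstm6 were each at most 0.0522 CPM per kb in the control libraries.

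In the EPS libraries the order was different in the middle. Gstp1 had 258 CPM per kb and Gstm1 had 138, with ranges that overlapped slightly. Mgst2 came next with 41.7 CPM per kb, moving from rank 7 to rank 3, and its range, 19.4 to 75.8, lay below that of Gstm1 but overlapped that of Gstm5. Gstm5 had 24.7, Mgst1 had 22.5, Gstm2 had 18.0 and Mgst3 had 16.1, with overlapping ranges. Mgst3 moved from rank 4 to rank 7 while its own level was almost the same in both groups.

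**Figure D3:**
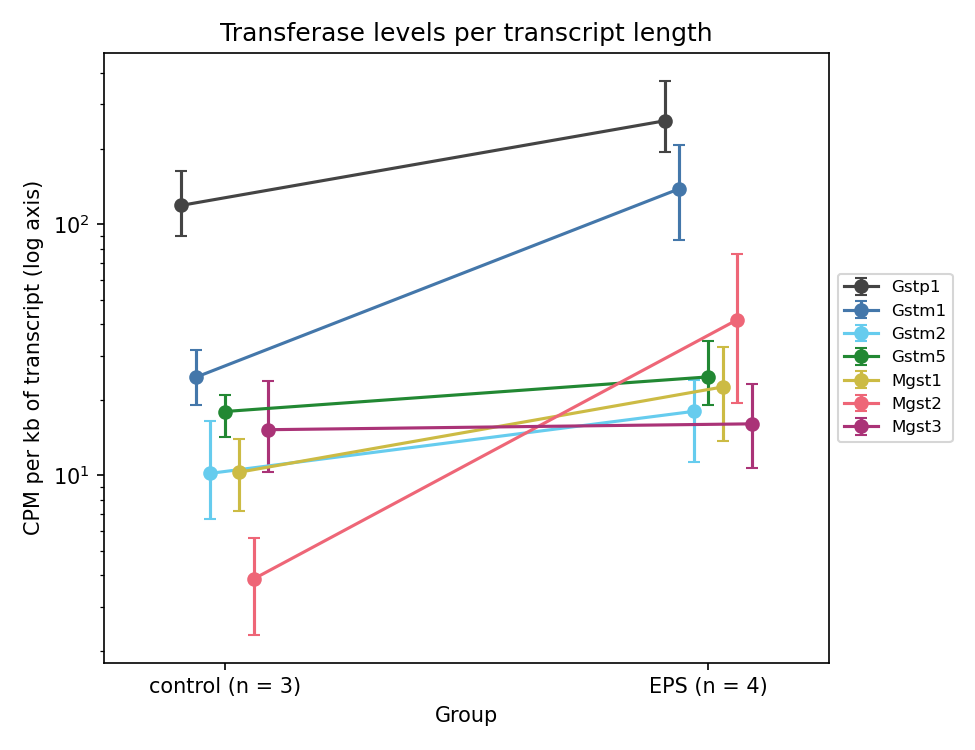
Mean level per kb of the principal transcript in the control group (n = 3) and the EPS group (n = 4), on a log axis in CPM per kb, with bars from the lowest to the highest library. Lines join the means of each gene, and that of Mgst2 crosses those of Gstm2, Gstm5, Mgst1 and Mgst3.

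The makeup of the family's transcripts also differed between the groups. The summed level of the 10 members had a control mean of 188 ± 39.1 CPM (SD, n = 3) and an EPS mean of 502 ± 157 CPM (SD, n = 4). Gstm1 made up 18.9%, 23.2% and 10.6% of the sum in the control libraries and 30.8% to 41.5% in the EPS libraries. Mgst2 made up 0.89% to 1.46% in the control libraries and 3.22% to 7.13% in the EPS libraries. The shares of Gstm5 and Mgst3 were smaller in all EPS libraries, with at least 8.55% of each control sum against at most 5.07% of each EPS sum for Gstm5, and at least 7.16% against at most 3.97% for Mgst3. The share of Gstp1 overlapped, at 41.8% to 57.7% and 32.3% to 48.4%.

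Ratios of reads within a library do not depend on how libraries are scaled to each other. For each Mgst1 read there were 0.166 to 0.208 Mgst2 reads in the control libraries and 0.730 to 1.21 in the EPS libraries. For each Gstm5 read there were 1.24 to 2.32 Gstm1 reads in the control libraries and 6.22 to 8.44 in the EPS libraries. The mu genes of one cluster thus differed by unequal amounts. The ratio of Mgst1 to Mgst3 was 0.623 to 0.8995 in the control libraries and 1.23 to 1.69 in the EPS libraries.

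**Figure D4:**
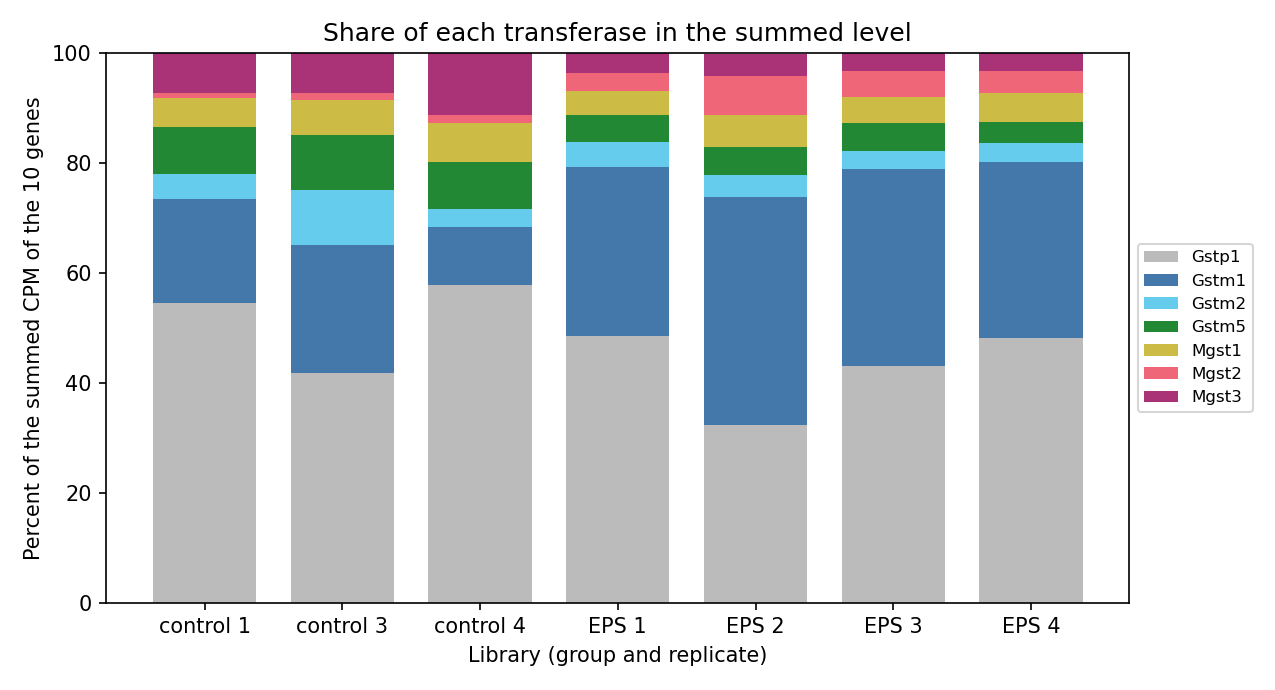
Percent of the summed CPM of the 10 genes taken by each of the 7 detected members, as stacked bars for each library. Gstm1 and Mgst2 take a larger share, and Gstm5 and Mgst3 a smaller share, in every EPS library than in any control library.

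Within the EPS group the members varied together. EPS replicates 2 and 4 were above EPS replicates 1 and 3 in all 7 members with a mean of at least 1 CPM. This order also held in 31.3% of the 12256 genes of at least that mean, so it was common in these libraries. EPS replicate 2 was the highest EPS library for Gstm1, Gstm2, Gstm5, Mgst1, Mgst2 and Mgst3, and EPS replicate 4 was the highest for Gstp1. EPS replicates 2 and 4 had 20527025 and 18830229 reads, fewer than the 21483135 and 21892568 of EPS replicates 1 and 3, and the part of depth was not tested. Markers of proliferating myoblasts summed lowest within the EPS group in replicate 2 and highest in replicate 4.

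The spread among EPS libraries differed between members. The coefficient of variation over the EPS libraries was 59.0% for Mgst2, 43.1% for Mgst1, 39.4% for Gstm1 and 36.4% for Mgst3. It was 31.3% for Gstm2, 31.1% for Gstp1 and 28.8% for Gstm5. The order was different over the control libraries, with 53.8% for Gstm2, 49.4% for Mgst3, 42.8% for Mgst2 and 33.1% for Mgst1. The control values of Gstp1, Gstm1 and Gstm5 were 32.8%, 26.3% and 19.1%. These differences in spread were not tested. Mgst2 had a 3.91-fold span among EPS libraries and Gstm1 a 2.38-fold span.

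Deviations from the group means were alike for several pairs of members. Over the 7 libraries, which share their depth and scaling between genes, Pearson's r of the deviations was 0.97 for Gstm5 and Mgst2, 0.94 for Gstm5 and Mgst1, 0.93 for Mgst1 and Mgst2 and 0.93 for Mgst1 and Mgst3. The neighbours Gstm1 and Gstm2 had an r of 0.79. Gstp1 was nearly unrelated to Gstm1, at 0.12, and to Gstm2, at 0.03. Its r was higher with the other members, at 0.49 with Gstm5, 0.50 with Mgst2, 0.74 with Mgst1 and 0.79 with Mgst3. These are descriptions over 7 points.

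**Figure D5:**
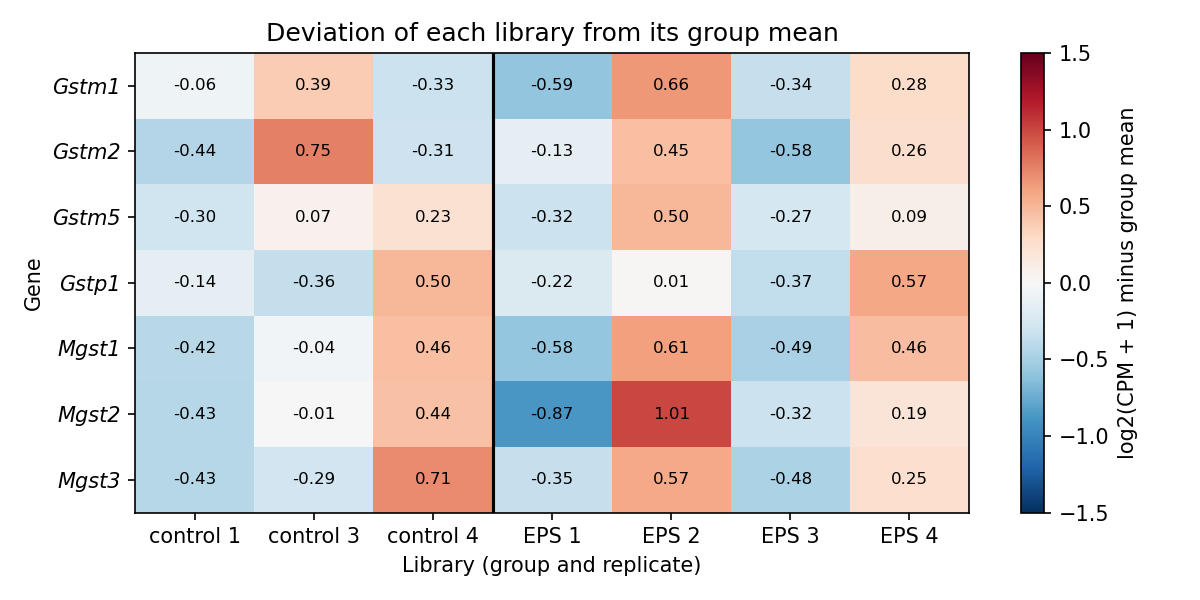
Deviation of each library from its group mean on the log2(CPM + 1) scale for the 7 detected members, with red above and blue below the mean, and the black line between the control and EPS groups. EPS replicate 2 is red in 6 rows and near 0 for Gstp1.

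Genes outside the family with the most similar deviations were searched among 10468 genes with a mean of at least 5 CPM. For Gstm1 they were Trappc4, 2610044O15Rik and 2310002L13Rik, with r of 0.996, 0.996 and 0.987. For Gstp1 they were Mrfap1, Gpn1 and Gata2, and for Mgst1 they were Dnaja2, Tmem199 and Rab2a, with r from 0.983 to 0.997. As many as 283 genes had an r over 0.9 with Gstm1, 93 with Gstp1 and 247 with Mgst1, which limits what a name in this search tells.

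Of the other glutathione transferases, 17 of 19 listed symbols were in the files, and 6 were past both thresholds, all higher in the EPS group, while 11 did not pass. The alpha class gene Gsta1 had 0.309 ± 0.124 CPM (SD, n = 3) without and 29.9 ± 14.4 CPM (SD, n = 4) with EPS, with an adjusted p of 0.0091 in limma. Gsta4, which acts on the lipid peroxidation product 4-hydroxynonenal, went from 10.8 ± 1.19 CPM to 327 ± 324 CPM, with a limma adjusted p of 0.0443 and 807 CPM in EPS replicate 4 alone. These were the only related genes with an adjusted p under 0.05, a level reached by 0.141% of all genes tested. The lists of related genes, here and below, were also chosen with earlier results of these data known. Nothing is therefore read from their counts beside this share. Gsta2 and Gm3776 were at or under the floor in control replicates 1 and 3 and, against the same mean floor, higher with EPS by at least 76.0-fold and 62.6-fold. Without EPS replicate 4, which had 37.1 CPM of Gsta2, the bound for Gsta2 was 31.7-fold. Gsta2 did not pass both thresholds with the replicate block or at a P-value threshold of 0.001. Gsto2, of the omega class, had a log2 fold change of 1.10 (limma adjusted p = 0.114), and was past both thresholds in 10 of the 16 alternatives. Among others, its call was lost under quantile normalization, under median-of-ratios scaling, and without control replicate 1 or EPS replicate 2. Gsta1, Gsta4, Gm3776 and Gstp2 were past both thresholds in all 16 alternatives. The median log2 fold change of the 17 genes was 0.40.

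None of the 3 other MAPEG genes, Ptges, Ltc4s and Alox5ap, was past the thresholds, and their log2 fold changes were between -0.01 and 0.05.

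Glutathione is made from cysteine, glutamate and glycine, and it is kept reduced with NADPH. Of 10 genes of its synthesis and reduction, 3 were past both thresholds, all higher. Gclm, the modifier subunit of the rate-limiting enzyme, had a log2 fold change of 1.93 (limma adjusted p = 0.094), and did not pass with the replicate block. Pgd and Me1, which both make NADPH, had log2 fold changes of 1.22 (limma adjusted p = 0.164) and 1.04 (limma adjusted p = 0.069). Pgd was past both thresholds in 12 of 16 alternatives and lost its call without control replicate 1, control replicate 3 or EPS replicate 4. The call of Pgd was also lost at a P-value threshold of 0.001. Me1 was past them in 9 of 16, and lost its call under quantile normalization, median-of-ratios scaling, edgeR and DESeq2, and without control replicate 3, EPS replicate 3 or EPS replicate 4. The catalytic subunit Gclc had 0.77 (limma adjusted p = 0.277) and did not pass. The median over this list was 0.77.

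Of the genes that break down glutathione and its conjugates, 13 of 15 were tested, and 1 was past both thresholds. It was Chac1, which cleaves glutathione in the cell and is known as a target of the unfolded protein response, with a log2 fold change of -1.17 (limma adjusted p = 0.198). Its level was lower in every EPS library than in any control library. The call was lost in 5 of the 7 fits that left out 1 library. These were the fits without control replicate 3 or 4 or EPS replicate 1, 3 or 4. It was also lost at a P-value threshold of 0.001. The median over the list was 0.05.

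Of 6 genes of conjugate efflux, the exporter Abcc4 was past both thresholds, with a log2 fold change of 1.53 (limma adjusted p = 0.123). It did not pass with the replicate block or at a P-value threshold of 0.001. The exporter Abcc1 was higher in every EPS library, but at 0.84 it did not reach 2-fold (limma adjusted p = 0.138). The median over the list was 0.27, or 0.22 with genes under the floor at their bounds.

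Of 10 regulators of transferase genes, which are transcription factors and Keap1, only Ahrr was past both thresholds. Ahrr, the repressor of the aryl hydrocarbon receptor and itself one of its targets, had a log2 fold change of 2.72 (limma adjusted p = 0.166). It did not pass without control replicate 3, with the replicate block or at a P-value threshold of 0.001. It was at 1.21 CPM in EPS replicate 1 and between 15.0 and 15.7 CPM in the other EPS libraries. Nfe2l2 had a log2 fold change of 0.28 (limma adjusted p = 0.785), which is a measure of its transcript and not of its activity. The median over the list was 0.29.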

How the data were processed

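RNA-seq was analysed for 3 control and 4 EPS libraries, grouped by the stimulation label of each sample. Per the labels, the libraries were directional and read from both ends after poly(A) selection. The submitters' processing notes name STAR 2.5.4b and GRCm38. The authors deposited CPM, 1 value for each of 26607 genes and library, with the same sum in every library. The read counter, annotation, use of strand and treatment of shared reads are not given in the sources used here. At least 99.9962% of the values of each library were whole reads within 0.01, and these reads were recovered.

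Every gene with a read in any library entered a fit of log2(CPM + 1) in limma 3.58.1 (R 4.3.3), with a mean-variance trend and Benjamini-Hochberg adjustment over 19144 genes. A call needed more than a 2-fold change and a two-sided P, without adjustment, under 0.01, as in the study's results, while its methods give 0.001. The deposited unit is CPM, so edgeR 4.0.16 and DESeq2 1.42.0 were run only as alternatives on the recovered reads. By these, 629 and 585 genes were called. Also tried were quantile normalization, median-of-ratios scaling, pseudocounts of 0.5 and 0.1, a replicate block, only genes averaging 1 CPM or more, a P-value threshold of 0.001, and each library left out. The fits were tested on simulated data.

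The members and the related lists were chosen with earlier results of these data known. Control replicate 4 was left out of the floor after the data had been seen. The named genes were all 10 members, their near copies Gstm7 and Gstp2, list genes past both thresholds, and 3 similar genes for the member of each class with the highest CPM averaged over all libraries. Gclc, Abcc1, Nfe2l2 and the MAPEG genes were named after their values were seen. Gsta13 and Gstp3 were not among the listed symbols. Identity was computed on coding sequences of GENCODE M21 rather than proteins, by global alignment. Promoters are those of RefSeq, matched by symbol for all 10 members. Shared windows were exact matches between 100-base stretches of transcripts.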

Additional observations from a re-analysis of the deposited data

Results flagged for a closer look

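Within the EPS group of 4 libraries, 23 genes were searched for a library far from the other EPS libraries, by the 95% critical value of Dixon's ratio. Chance flags about 1 in 20 groups. A library stood apart in 4 genes. For Gstm3, EPS replicate 2 had 0.0487 CPM, which is 1 read, where the others had 0. With the others tied at 0, any single read meets this criterion, and 1 read is under the floor. For Gstm7, EPS replicate 2 had 1.51 CPM, where the others had 0.594 to 0.743 CPM. For Gsto2, EPS replicate 2 had 21.5 CPM, where the others had 15.2 to 15.7 CPM. For Ahrr, EPS replicate 1 had 1.21 CPM, where the others had 15.0 to 15.7 CPM. No library stood apart in this way for Gstm1, Gstm2, Gstm5, Gstp1, Mgst1, Mgst2 or Mgst3. The groups of 3 control libraries were not searched.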

How the results depend on the processing

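Gstm1 and Mgst2 stayed past both thresholds in all 16 alternatives. Of 112 alternative log2 fold changes of the 7 detected members, 94 kept the direction and the call, 6 lost it (all Gstp1), 4 gained it and 8 reversed (all Mgst3). These 112 values are not all separate checks. The filter and the P-value threshold leave a fold change unaltered, and the replicate block gives that of the fit without EPS replicate 2. Mgst3 was -0.0344 with quantile normalization, -0.0034 with median-of-ratios scaling, -0.0486 with edgeR, -0.0578 with DESeq2, -0.0862 with the replicate block, and between -0.110 and 0.461 with 1 library left out, below 0 without control replicate 1, control replicate 3 or EPS replicate 2. The cause was not tested. The genes past both thresholds numbered 269, and 601 with a pseudocount of 0.1, 629 with edgeR, 585 with DESeq2 and 106 at a P-value threshold of 0.001. Related list genes past them numbered 12, and 6 at the threshold of 0.001. With the replicate block, 161 genes and 7 related genes passed, the latter Chac1, Gm3776, Gsta1, Gsta4, Gstp2, Me1 and Pgd. Same-numbered libraries did not deviate together in every pair (r of 0.25, -0.45 and 0.07), so the numbers were not taken as pairs. Between differently numbered libraries r ran from -0.46 (control replicate 1 and EPS replicate 2) to 0.59 (control replicate 1 and EPS replicate 3). Deviations sum to 0 within each group, so these values cannot settle whether libraries were paired.

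Over genes averaging at least 1 CPM, the median log2 fold change was 0.10 on the deposited scale, 0.0052 with quantile normalization and -0.0048 with median-of-ratios scaling. Of the genes past both thresholds, 68.8% were higher in the EPS group on the deposited scale, 51.6% and 52.8% under these scalings. Members with small differences are read against this shift. Leaving out each library gave 2 to 3 members, 209 to 325 genes in all and 8 to 13 related genes past the thresholds. All EPS libraries lay above the control range in 4 to 6 members. With fewer libraries this is easier to meet for any gene. Its share over all genes was not computed for these sets, so nothing is read from this count. Depth limits Gstm3, Gstm4 and Gstm6, whose control reads were at most 1.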
